A study of Mus musculus with 2 samples.

Results

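The genes described here carry the provisional symbols of the RIKEN mouse cDNA collection, which end in Rik, and were clearly expressed in whole mouse uterus. They were chosen by symbol and by level, as the genes whose symbol ends in Rik and whose mean over both libraries was 5 FPKM or more (fragments scaled for transcript length and for the number mapped in the library). The rule took 90 of 463 Rik genes, among 20634 genes in the tables, and 8522 genes of any name reached the same level. Uteri were taken whole on gestational day 4, counted from the vaginal plug as day 1, from females aged 6 to 8 weeks mated with fertile males. One library was labelled Mettl3 f/f and 1 Mettl3 ed/ed; the labels name neither the promoter or cell type behind the ed allele nor the number of animals per library. Mettl3 encodes the catalytic subunit of the complex that writes N6-methyladenosine on RNA, and its own transcript stood at 10.6 FPKM (f/f) and 10.2 FPKM (ed/ed), so it did not separate the labels.

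A Rik symbol is a placeholder. It names a full-length cDNA clone by library, plate and well, and it stays until a function or a family gives the gene a name. Many such genes are conserved in human, where they carry similar placeholders made of a chromosome and an open reading frame number or a KIAA clone number. On the day the blastocyst is about to attach, the uterus holds luminal and glandular epithelium, stroma, muscle, vessels and immune cells.

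With 1 library per genotype no spread between animals could be estimated, and every difference is between these 2 libraries. Each ratio is a log2 value, ed/ed over f/f, taken after adding 1 FPKM to both, and 2-fold on that scale set the calls, a rule of size with no test. The level chose the members and the ratio chose those named, so both are given as description. Depth, estimated from the spacing of low values, was 1.82e+07 fragments in the first library and 1.72e+07 in the second. Markers of uterus were present: all 6 identity genes, from Pgr and Esr1 to Hoxa10, were at 1 FPKM or more in both libraries. Their median log2 ratio was -0.60, with Msx1 and Wnt7a above 0. Fat markers were at 0, but 5 oviduct markers summed to 45.7 and 63.0 FPKM, f/f first (mostly Ovgp1, at 41.0 and 60.8). Blood markers summed to 42.4 and 38.5 FPKM, trophoblast markers to 5.07 and 5.95, ovary markers to 0.667 and 2.73 and T and B cell markers to 1.23 and 0.676. The 4 stroma markers summed to 487 and 221 FPKM in f/f and ed/ed, the 4 endothelial markers to 90.2 and 30.6, the 4 macrophage markers to 101 and 218 (mostly Lyz2, at 86.6 and 188, with Csf1r at 3.97 and 3.02) and the 4 smooth muscle markers to 269 and 405. Epithelial markers summed to 1057 and 983 FPKM, with Epcam and Cdh1 at log2 ratios of 0.56 and 0.59 and Krt8 and Krt18 at -0.48 and -0.44. The part of these cell types in the ratios of the Rik genes was not tested, and in whole tissue fewer cells of a type and less RNA per cell cannot be told apart.

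Sequences of 5 promoters come first, to show start regions of genes past 2-fold in each direction. Each is the 250 bases before the RefSeq start on GRCm38.p6, 5′ to 3′ on the strand of the gene. The B230307C23Rik and 2310030G06Rik windows reach a few bases into the gene as GENCODE M21 draws it. Capitals mark matches on either strand to the motifs searched: the GC box GGGCGG, the CCAAT box, the TATA box TATAAA, the ETS motif CCGGAAG, and the NRF1, estrogen response, progesterone response, interferon response and STAT motifs. B230307C23Rik lies at chr16:97997086-97997335 on the plus strand, 2200002D01Rik at chr7:29248468-29248717 on the minus strand and 2310030G06Rik at chr9:50746528-50746777 on the minus strand, and these are the 3 highest ratios. 2610008E11Rik lies at chr10:79097601-79097850 on the minus strand and D430019H16Rik at chr12:105453606-105453855 on the plus strand, and both were lower in ed/ed. The window of the lowest gene, 0610009L18Rik, would reach its neighbour Actg1 and is not shown, nor is that of A130010J15Rik, with more than 1 listed start; 4 of the 5 windows shown are poor in CpG, as 15 of all 81 are.
B230307C23Rik: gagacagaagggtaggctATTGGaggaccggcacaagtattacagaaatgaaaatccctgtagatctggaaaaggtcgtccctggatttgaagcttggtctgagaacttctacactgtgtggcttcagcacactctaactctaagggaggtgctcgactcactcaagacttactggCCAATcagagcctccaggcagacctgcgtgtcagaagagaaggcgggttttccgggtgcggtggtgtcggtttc
2200002D01Rik: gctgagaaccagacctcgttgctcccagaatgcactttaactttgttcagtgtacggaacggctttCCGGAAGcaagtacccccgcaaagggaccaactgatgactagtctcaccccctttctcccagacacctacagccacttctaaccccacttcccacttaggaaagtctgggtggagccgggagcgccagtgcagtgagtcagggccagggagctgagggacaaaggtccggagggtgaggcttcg
2310030G06Rik: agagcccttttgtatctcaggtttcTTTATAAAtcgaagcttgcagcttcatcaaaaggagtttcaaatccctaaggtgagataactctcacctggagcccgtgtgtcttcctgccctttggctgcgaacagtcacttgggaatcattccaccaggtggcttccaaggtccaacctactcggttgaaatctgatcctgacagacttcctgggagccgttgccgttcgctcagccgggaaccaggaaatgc
2610008E11Rik: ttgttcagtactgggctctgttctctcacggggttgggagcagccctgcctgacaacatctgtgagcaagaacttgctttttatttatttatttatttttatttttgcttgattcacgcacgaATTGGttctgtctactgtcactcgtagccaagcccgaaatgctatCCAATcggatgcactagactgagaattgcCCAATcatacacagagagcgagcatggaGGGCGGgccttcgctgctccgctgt
D430019H16Rik: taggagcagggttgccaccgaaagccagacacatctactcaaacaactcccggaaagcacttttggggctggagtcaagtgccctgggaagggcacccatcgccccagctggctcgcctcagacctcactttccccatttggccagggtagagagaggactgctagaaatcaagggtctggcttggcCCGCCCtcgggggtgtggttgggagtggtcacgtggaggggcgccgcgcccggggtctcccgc
The B230307C23Rik window holds 2 CCAAT boxes facing opposite ways. That of 2200002D01Rik holds 1 ETS motif and that of 2310030G06Rik an overlapping pair of TATA matches far from the start. The 2610008E11Rik window has 3 CCAAT boxes and 1 GC box, and the D430019H16Rik window 1 GC box.

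Among the 90 Rik genes, 7 passed 2-fold upward in ed/ed (2.12% of all 8522 genes of that level), 4 passed it downward (5.28% of all) and 79 lay within 2-fold. The higher genes were B230307C23Rik, 2200002D01Rik, 2310030G06Rik, 0610040J01Rik, 9430038I01Rik, 1600014C10Rik and 1110008P14Rik, and the lower ones 0610009L18Rik, 2610008E11Rik, A130010J15Rik and D430019H16Rik. Ratios ran from -1.304 to 1.503 with a median of -0.14, beside -0.24 over all genes of that level. Of all 8522 genes 2553 lay above 0 and 5969 below, and of the 90 Rik genes 34 and 56. At a 1.5-fold rule 12 were higher and 20 lower (6.16% and 21.4% of all). They summed to 1849 and 1926 FPKM, f/f first, and the median level 15.2 FPKM in both libraries. None of the 90 was listed at 0 in either library.

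**Figure D1:**
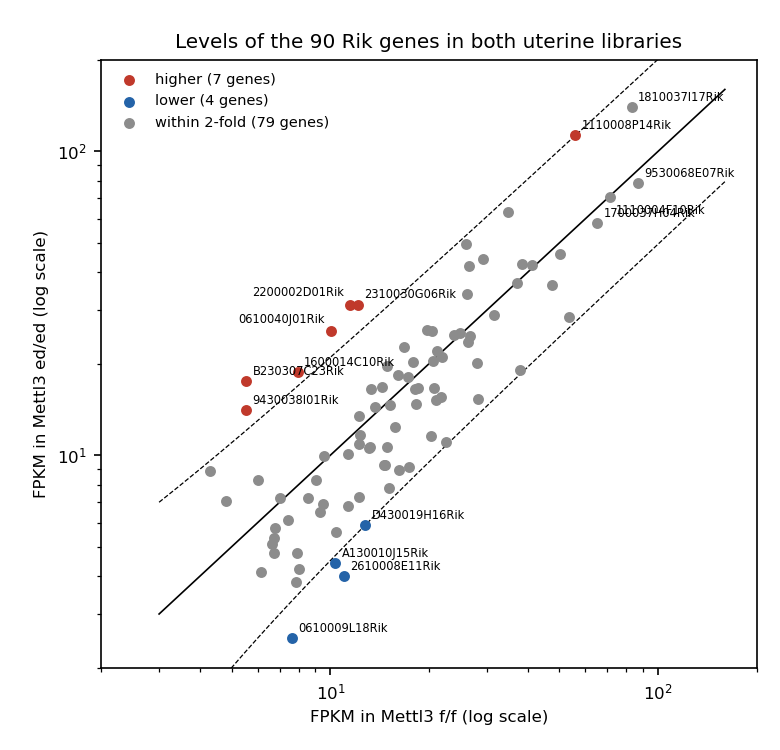
Each point is 1 of the 90 Rik genes, with FPKM in the f/f library on the horizontal axis and FPKM in the ed/ed library on the vertical axis, both on log scales; the solid line marks equal levels and the dashed lines 2-fold on the FPKM + 1 scale. The 4 lower genes (blue) had f/f levels from 7.65 to 12.8 FPKM. The 7 higher genes (red) had f/f levels from 5.53 to 12.2 FPKM, apart from 1110008P14Rik at 55.9.

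The highest ratio belonged to B230307C23Rik (ENSMUSG00000080717, chromosome 16, 97997315 to 98031801, GRCm38), annotated as coding for a protein of 110 residues. Its level was 5.53 FPKM in the f/f library and 17.5 FPKM in the ed/ed one. From about 106 and 316 fragments, the FPKM ratio was 3.17 with a 95% counting interval of 2.53 to 3.98. These intervals are exact binomial, rest on the estimated depth and the longest coding transcript, and cover counting error only. 2200002D01Rik (chromosome 7, 29246561 to 29248466), which RefSeq also lists as H2RSP and IMUP, encodes a small basic protein and lies beside the protease inhibitor gene Spint2. It was at 11.5 and 31.3 FPKM, a ratio of 2.72 (2.35 to 3.16). 2310030G06Rik (chromosome 9, 50739691 to 50746536) encodes a protein of 141 residues with no established role. At 12.2 and 31.3 FPKM its ratio was 2.57 (2.201 to 3.03). These 3 genes therefore stood at similar or higher levels than most Rik genes in ed/ed and at or below the median of 15.2 FPKM in f/f.

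0610040J01Rik (chromosome 5, 63812363 to 63899625) encodes a protein of 313 residues and stood at 10.04 and 25.6 FPKM, with an FPKM ratio of 2.55 (2.23 to 2.91). 9430038I01Rik (chromosome 7, 137375574 to 137410762) was at 5.53 and 14.1 FPKM, also a ratio of 2.55 (2.28 to 2.85). 1600014C10Rik (chromosome 7, 38183217 to 38197568) is the mouse counterpart of a human gene mutated in a form of neurodegeneration with brain iron accumulation. It was at 7.97 and 18.8 FPKM, a ratio of 2.36 (2.11 to 2.64). The most abundant of the higher genes was 1110008P14Rik (chromosome 2, 32377097 to 32381938), which encodes bublin, a small coiled-coil protein of 83 residues linked to intermediate filaments. At 55.9 and 113 FPKM, from about 2412 and 4594 fragments, it lay just past 2-fold, with a log2 ratio of 1.001. The counting interval of its FPKM ratio was 1.92 to 2.12.

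Just short of 2-fold on the higher side were 0610012G03Rik, at 26.0 and 49.7 FPKM (log2 ratio 0.91), and 1190007I07Rik, at 4.29 and 8.87 (0.90). The latter encodes the mitochondrial micropeptide brawnin, needed for respiratory complex III assembly, and its FPKM ratio of 2.07 had a wide interval of 1.38 to 3.22 from about 36 and 71 fragments. 2510039O18Rik, listed by RefSeq as Kiaa2013, was at 34.9 and 63.0 FPKM (log2 ratio 0.83). 1810037I17Rik, which RefSeq lists as Aln and which encodes another-regulin, a micropeptide that restrains the calcium pump of the endoplasmic reticulum, was at 83.04 and 140 FPKM (0.75). It was the most abundant of the 90. 1700123O20Rik was at 26.5 and 41.97 FPKM (0.65), and 0610010K14Rik, chosen after its values were seen, at 29.2 and 44.2 (0.58); the latter encodes the chromatin protein Bap18. The higher end of the distribution thus held several genes for proteins of fewer than 150 residues at levels well above 5 FPKM.

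At the other end, 0610009L18Rik (chromosome 11, 120348678 to 120351190) was the only one of 89 annotated as noncoding in GENCODE M21, a long RNA from a bidirectional promoter; RefSeq lists 1500011B03Rik as noncoding too. It stood at 7.65 and 2.501 FPKM, from about 51 and 16 fragments, and counting error alone put its ratio of 0.327 between 0.177 and 0.593. Its mean of 5.07 FPKM was also the closest of all to the level threshold. 2610008E11Rik (chromosome 10, 79064374 to 79097600) encodes a protein with 14 matches to the C2H2 zinc finger pattern and was at 10.999 and 3.99 FPKM, a ratio of 0.363 (0.315 to 0.417). A130010J15Rik (chromosome 1, 193168046 to 193177832) was at 10.4 and 4.42 FPKM (ratio 0.427, 0.369 to 0.492). D430019H16Rik (chromosome 12, 105453856 to 105493095) encodes a protein of 83 residues with a hydrophobic stretch. At 12.8 and 5.88 FPKM (ratio 0.460, 0.416 to 0.509) it lay just past 2-fold lower, at a log2 ratio of -1.002.

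Just short of 2-fold lower lay genes at both high and low levels. B230219D22Rik stood at 22.6 and 11.1 FPKM (log2 ratio -0.97), and C130074G19Rik at 37.9 and 19.1 (-0.95). 4833439L19Rik, listed by RefSeq as P33monox and encoding a putative monooxygenase, was at 53.6 and 28.6 FPKM (-0.89). D630045J12Rik, listed as Kiaa1549, encodes a large membrane protein of 1940 residues and was at 7.86 and 3.81 FPKM (-0.88). These 4 had similar ratios over a wide span of levels. 2010315B03Rik, with 11 zinc finger matches, was at 15.1 and 7.80 FPKM (-0.87), and 4931406C07Rik at 17.4 and 9.12 (-0.86). 2210016L21Rik, listed as Custos and known from frog embryos as a regulator of Wnt signalling, was at 28.2 and 15.3 FPKM (-0.84), and 2510002D24Rik at 16.2 and 8.91 (-0.79).

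**Figure D2:**
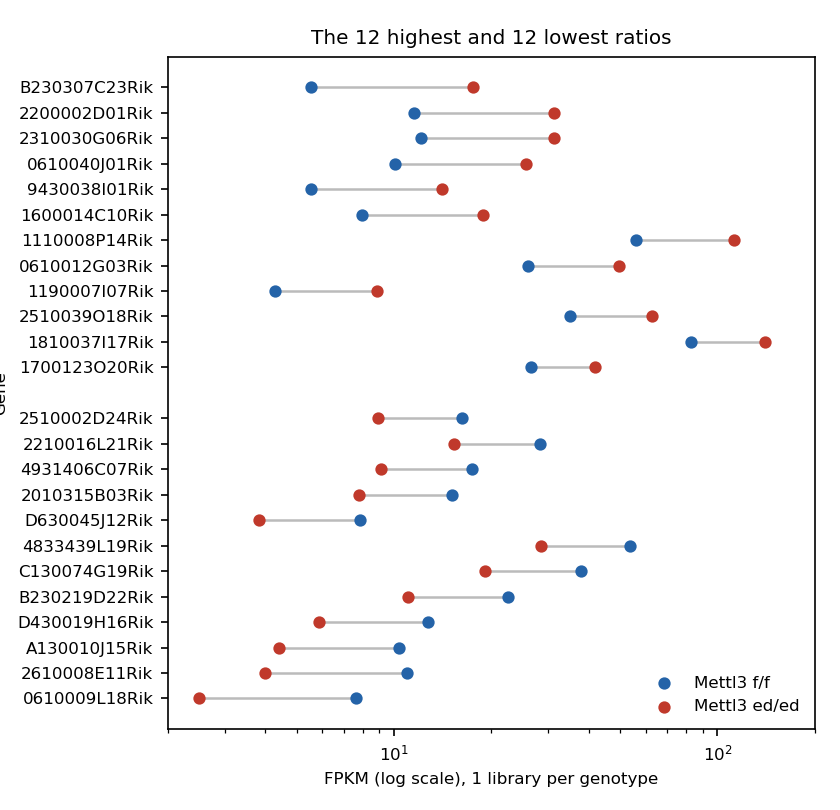
For the 12 Rik genes with the highest and the 12 with the lowest ratio, blue points give FPKM in f/f and red points FPKM in ed/ed on a log axis, with 1 library each and no error bar. The upper 12 reach from 8.87 FPKM (1190007I07Rik) to 140 FPKM (1810037I17Rik) in ed/ed, and the lower 12 from 7.65 to 53.6 FPKM in f/f.

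The 10 Rik genes with the highest mean held both large and small ratios. Of these, 1810037I17Rik, 1110008P14Rik, 2510039O18Rik and 4833439L19Rik had log2 ratios of 0.75, 1.001, 0.83 and -0.89, as given above. The other 6 differed less. 9530068E07Rik, listed as Kct2 and encoding a transmembrane protein, was at 86.9 and 78.5 FPKM, and 1110004F10Rik, the small acidic protein gene Smap, at 71.3 and 70.6. 1700037H04Rik was at 65.3 and 58.1 FPKM, and 1810009A15Rik at 50.2 and 46.04. 2610528J11Rik was at 47.6 and 36.3 FPKM, and 2410002F23Rik at 41.2 and 42.4. Log2 ratios of these 6 ran from -0.38 to 0.04. The smallest absolute ratios were those of 0610009B22Rik, at 37.1 and 37.01 FPKM, D030056L22Rik, at 20.6 and 20.5, and Smap, with 2310039H08Rik, 2410002F23Rik, 2310022A10Rik, 9130401M01Rik, 2610301B20Rik, A430005L14Rik and 3110040N11Rik next, all between -0.054 and 0.054. A small ratio in 1 library each does not show equal levels. Counting intervals of the FPKM ratio held 1 for 24 of 89 Rik genes, lay above 1 for 23 and below 1 for 42. These intervals are on the deposited scale, where the median log2 ratio over all genes of that level was -0.24. The same counts were not made over all genes, so they are not a trait of Rik genes.

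Scale mattered for direction. Relative to the median of all genes of that level, 53 Rik genes lay above and 37 below. When ed/ed was rescaled, by the sum, median ratio, upper quartile or reference genes, or the length trend was removed, all 7 higher genes were past 2-fold under each of these 5, and none of the 4 lower genes was. Each of the 4 rescalings raises every ed/ed value, so by construction no higher call could be lost to them and only negative ratios could change sign. 2610008E11Rik was past 2-fold lower under 3 of the 5 and 0610009L18Rik under 4, A130010J15Rik and D430019H16Rik under 0. A sign changed under at least 1 of the 5 for 29 Rik genes, so the directions of small negative ratios rest on the scale. That includes Smap, Kct2, 0610009B22Rik, D030056L22Rik, 9130401M01Rik, 3110040N11Rik, 1700037H04Rik, 1810009A15Rik and 2610528J11Rik of those named. The 4 rescalings moved the median of all genes by 0.08 to 0.43 on the log2 scale. With 5 FPKM added in place of 1, 9430038I01Rik (0.86), 1600014C10Rik (0.88), 1110008P14Rik (0.95) and all 4 lower genes fell short of 2-fold.

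In structure the Rik genes were small and simple. GENCODE M21 held 89 of the 90 identifiers, each with the same symbol, and 88 were protein-coding. Their median protein had 204.5 residues, against 429 for all genes of that level, and 25 of 88 (28.4%) encoded fewer than 150 residues, against 8.01%. The median transcript had 4 exons against 9, and a length of 2523 nt against 2953 nt. A hydrophobic stretch, taken as 19 residues with a mean Kyte-Doolittle value of 1.6 or more, was found in 17 of 88 (19.3%), against 30.8%. GGACT, the most common form of the motif that the Mettl3 complex methylates, occurred in the transcript of 82 of 89 (92.1%), against 91.9%, with a median of 1.24 per kilobase against 1.05. A match is no measure of methylation. Only 1 transcript per gene was searched, the longest coding one where there was one. B230307C23Rik and 2200002D01Rik, the pair with the highest ratios, were among the 7 with no GGACT there. For B230307C23Rik that transcript holds 1298 of 5186 exon bases. Over all 693 genes of that level without GGACT, 3.32% were higher and 4.91% lower, against 2.01% and 5.3% of the 7824 with it.

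Of the 7 higher genes, 5 encode small proteins. Of the 25 Rik genes for proteins under 150 residues, 5 were 2-fold higher and 1 lower, with a median log2 ratio of -0.002, and over all 680 such genes 5.44% were higher and 3.68% lower, with a median of -0.01. Of the 63 with longer proteins, 2 were higher and 2 lower, with a median of -0.15 beside -0.26 over 7810 genes, of which 1.81% were higher and 5.4% lower. The median of the small-protein Rik genes was thus close to that of all small-protein genes. Ratios also followed length in the whole table: the median over all genes of that level was -0.01 in the first of 10 length groups (231 to 1201 nt) and -0.42 in the last. The 14 Rik genes in the first group had a median of -0.03, and the 8 in the last one of -0.31, but between them the Rik medians did not follow the trend, at 0.056 in the second group, -0.61 in the seventh and 0.096 in the eighth, from 15, 3 and 8 genes. With the length trend removed, 9 Rik genes were 2-fold higher and 1 lower (3.44% and 2.42% of all genes), and the difference of their median from that of all genes went from 0.11 to 0.05.

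**Figure D3:**
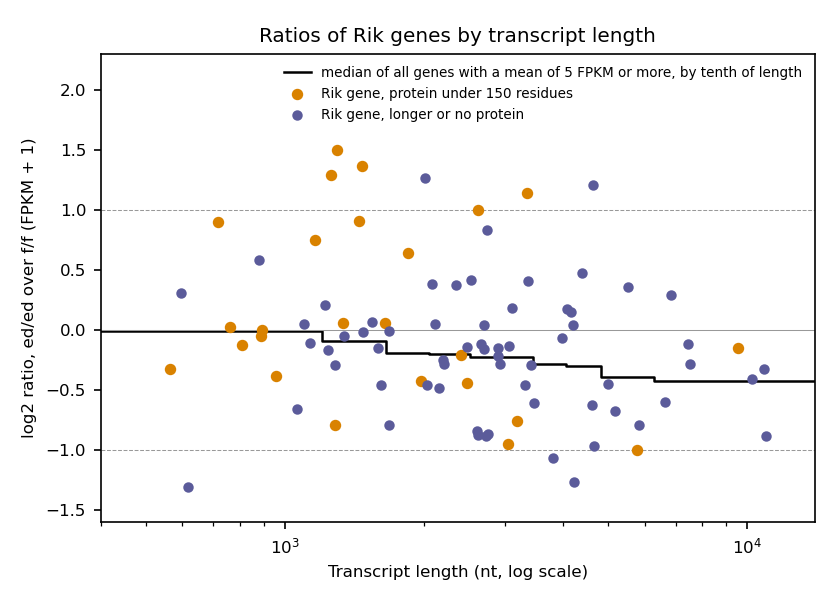
Points are the 89 Rik genes with an annotated transcript, by transcript length in nt (log scale) and log2 ratio of FPKM + 1, in orange where the protein has fewer than 150 residues; the black steps are medians of all genes with a mean of 5 FPKM or more in 10 length groups. Of the 7 points above 1, 5 are orange, and the black line falls from -0.01 to -0.42.

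RefSeq promoters were found for 81 of the 90. For genes with more than 1 listed start, 1600014C10Rik among them, only the most upstream start was used. The 250 bases before the start had a median GC content of 61.2% (60.4% over 6898 genes of that level) and 19 CpG pairs (17). The observed over expected CpG ratio, which is high in CpG islands, was 0.6 or more in 66 of 81 (81.5%), against 72.8%. The GC box was present in 63.0% (62.7% over all), CCAAT in 35.8% (36.8%), TATAAA in 4.94% (5.90%) and the ETS motif in 23.5% (15.4%), on either strand. The interferon response motif, GAAA and GAAA with 2 bases between, was found in 1.23% (2.65%), the STAT motif TTCNNNGAA in 6.17% (5.52%) and the NRF1 motif in 2.47% (1.62%). The progesterone and estrogen response elements had 0 matches in Rik windows (0.188% and 0% over all). The 15 Rik promoters with a CpG ratio under 0.6 belonged to genes with wider differences: 4 were higher and 1 lower (4% and 8.27% of all genes of that class), and the median absolute log2 ratio was 0.79, against 0.31 in the other 66, of which 2 were higher and 3 lower (1.23% and 3.70% of all). Over all genes the corresponding medians were 0.41 in 1874 genes and 0.34 in 5024. B230307C23Rik (CpG ratio 0.491), 2200002D01Rik (0.441), 2310030G06Rik (0.507), 1600014C10Rik (0.420) and D430019H16Rik (0.482) are those 5 genes, 4 of which have their windows printed above.

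**Figure D4:**
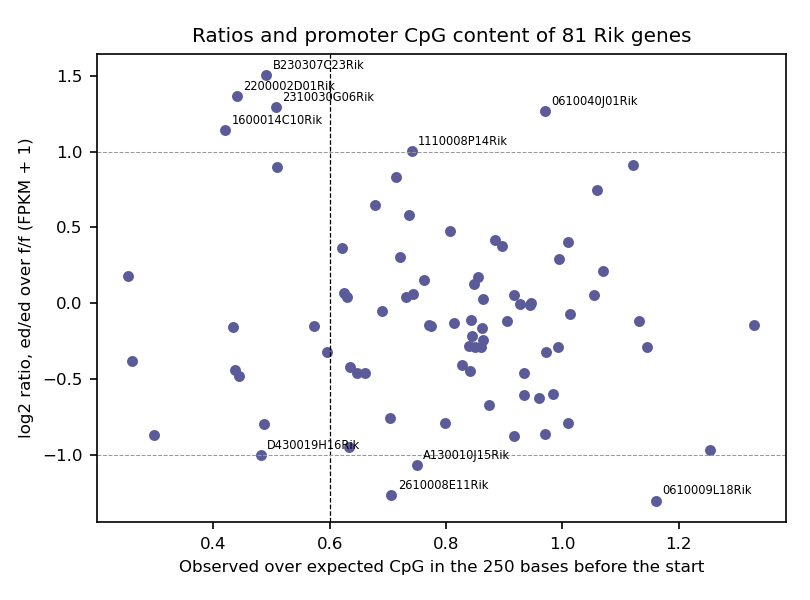
Points are the 81 Rik genes with a RefSeq promoter, by observed over expected CpG in the 250 bases before the start and log2 ratio of FPKM + 1; dashed lines mark a CpG ratio of 0.6 and 2-fold. Of the 6 genes above 1, 4 lie left of the vertical line, and 3 of the 4 genes below -1 lie right of it.

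Several Rik genes share a start region or exon positions with a neighbour, and with no statement on strand in the labels, fragments from shared exons cannot be told apart. Exons of 31 of 89 (34.8%) overlapped an annotated gene on the opposite strand, against 31.8% of all genes of that level. Where the neighbour had a mean of 5 FPKM or more, it had the opposite sign in 6 of 11 such pairs as deposited. When ed/ed was rescaled, this held in 4 or 5 of 11. The share over all overlapping genes of that level was not computed, so the count is not a trait of Rik genes. 2200002D01Rik overlaps Yif1b, a gene of membrane traffic, over 361 of its 1564 exon bases, and Yif1b was at 22.96 and 13.6 FPKM (log2 ratio -0.71). 1110008P14Rik overlaps Ciz1, a DNA replication factor gene, over 728 of 2694 exon bases, and Ciz1 was at 17.01 and 12.1 FPKM (-0.46). Neither neighbour shared the direction of its Rik gene. B230307C23Rik shares 105 of 5186 exon bases with C030010L15Rik, and 1600014C10Rik 113 of 3949 with D530033B14Rik; no value was used for either neighbour.

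A head-to-head start, with an opposite start within 1000 nt upstream, was annotated for 16 of 89 (18%), against 16.1%. In 4 of 6 such pairs with both genes at a mean of 5 FPKM or more, the ratios had opposite signs, and in 3 or 4 of 6 after rescaling. Here too the share over all such pairs of genes was not computed. 0610009L18Rik starts 136 nt from Actg1, the cytoplasmic gamma-actin gene, which stood at 1196 and 1443 FPKM while the noncoding RNA stood at 7.65 and 2.501. 0610012G03Rik starts 19 nt from Ncbp2, a subunit of the nuclear cap-binding complex; Ncbp2 was at 51.9 and 49.7 FPKM, and 0610012G03Rik at 26.0 and 49.7. 2310022A10Rik starts 15 nt from Pld3, which was at 17.01 and 8.96 FPKM, while the Rik gene was at 6.996 and 7.24. In these 3 pairs the ratios differed by 0.90 to 1.57 on the log2 scale. Drosha, the microRNA processing nuclease gene 166 nt from 6030458C11Rik, was at 13.3 and 11.6 FPKM, and 6030458C11Rik at 12.3 and 11.6. The mitotic kinesin gene Kif15, below the level at a mean under 5 FPKM, was at 5.96 and 2.79 FPKM, whereas 1110059G10Rik, 46 nt away, was at 6.00 and 8.26 (log2 ratios -0.88 and 0.40). The neighbour pairs, with 6030458C11Rik and 1110059G10Rik among them, were chosen after their values were seen.

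**Figure D5:**
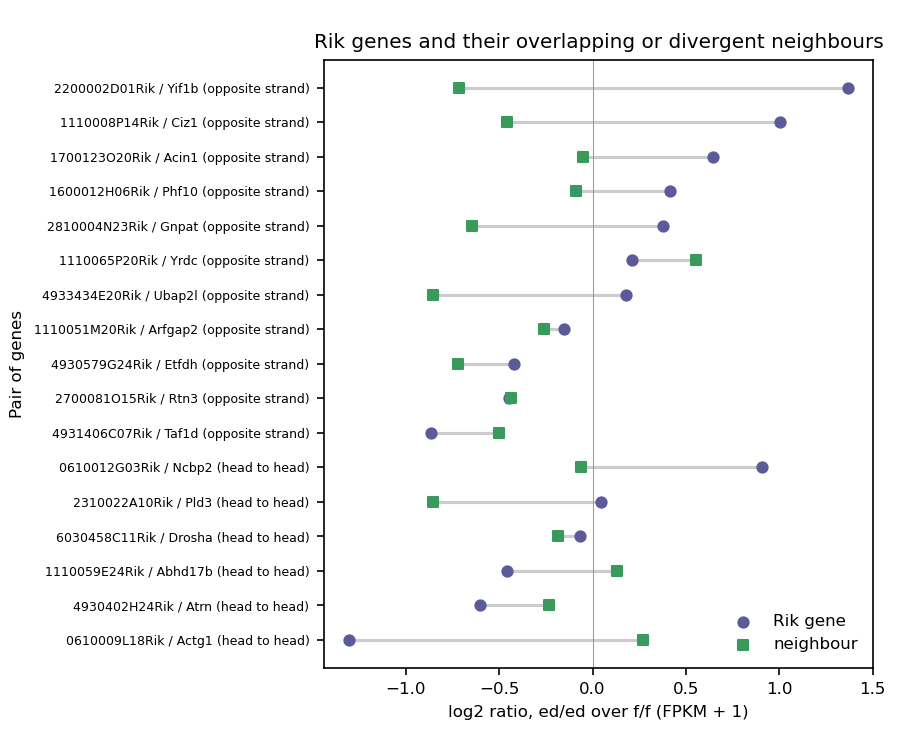
Each row is a Rik gene (circle) and a neighbour with a mean of 5 FPKM or more (square) that overlaps its exons on the opposite strand or starts head to head with it; the horizontal axis is the log2 ratio of FPKM + 1. The widest gaps are those of 2200002D01Rik and Yif1b (1.37 and -0.71) and of 0610009L18Rik and Actg1 (-1.304 and 0.27).

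Of the genes named at the edge of the level rule, only 3110009E18Rik, just below the level, was higher in ed/ed. Just above the level, besides 0610009L18Rik, were 9130008F23Rik, at 6.15 and 4.13 FPKM, and 4930579G24Rik, at 6.71 and 4.76. Just below it were 1700030K09Rik, at 6.13 and 3.801 FPKM, 1110032A03Rik, at 6.41 and 3.44, and 3110009E18Rik, at 3.83 and 5.72. Of the 373 Rik genes below the level, 65 reached 1 FPKM in either library, and of these 8 were 2-fold higher and 1 lower (3.98% and 8.43% of all 3643 such genes). Genes with another kind of placeholder, the 41 of that level named Gm with a number, had a median log2 ratio of -0.12, with 2 higher and 3 lower (2.12% and 5.28% of all genes of that level, as above).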

How the data were processed

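RNA-seq of 2 whole-uterus libraries, 1 per genotype, was used. The deposited tables give 1 value per gene, taken as FPKM because the submitters' processing notes name Cufflinks 2.2.1, after HISAT2 2.2.1; the headers name no unit. Both mm9 and mm10 are named, with no role given, so coordinates (GENCODE M21, GRCm38; RefSeq, GRCm38.p6) locate genes, not reads. Libraries were made with an Illumina TruSeq kit from TRIzol RNA, per the labels' protocols.

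Ratios used a pseudocount of 1 FPKM. No test was made, and neither strand nor isoform could be separated. Depth came from the spacing of FPKM times effective length (250 nt shorter than the transcript) in single-transcript genes. This step, the 2-fold calls and the motif finder were tested on simulated data. The simulated libraries used the same effective length and changes well past 2-fold, so they could test neither that length nor calls near 2-fold. Python 3.11.15, pandas 2.3.3, scipy 1.17.1 and statsmodels 0.14.6 were used. Lowess (fraction 0.3) gave the length trend.

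Members and lists were chosen with earlier results of these data known. Named genes were all past 2-fold, the 12 highest and 12 lowest ratios, the 10 highest means, the 10 smallest ratios and the 3 on either side of the level; any other is marked where it appears. Rescaled signs of neighbour pairs were added after seeing the data. Promoter, neighbour, length, hydrophobicity and GGACT descriptions were added with the values known. Of 19 clone names listed for known roles, 0 were members. Alternatives were other pseudocounts, levels, scalings, a length correction, coding or non-overlapping genes only and a 1.5-fold rule.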

Additional observations from a re-analysis of the deposited data

How the results depend on the processing

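The count of higher Rik genes was 7 and that of lower ones 4 (2.12% and 5.28% of all genes). Higher and lower counts were 4 and 0 with a pseudocount of 5 FPKM (1.28% and 2.32%) and 12 and 20 at 1.5-fold (6.16% and 21.4%). With every Rik symbol included 15 were higher (1.58%). In that setting most genes were near or at 0 and the median and its difference from all genes were 0. The lower count was 0 at a mean of 10 FPKM or more (4.94%) and 1 with 5 FPKM required in both libraries (4%). Non-overlapping Rik genes gave 3 higher among 50 (2.25% of all such genes). Counts were 11 and 2 when scaled by the median ratio (4.24% and 2.48% of all genes) and 10 and 2 by the upper quartile (3.46% and 3.05%). Scaling by reference genes gave 13 and 0 (6.54% and 1.61%), and by the sum 7 and 2 (2.58% and 4.13%). With the length trend removed they were 9 and 1 (3.44% and 2.42%). The share of called Rik genes that were higher was 63.6% as deposited, 77.8% by the sum and 83.3% by the upper quartile. It was 84.6% by the median ratio, 90% without the length trend and 100% by reference genes or a pseudocount of 5. It fell to 57.1% with a pseudocount of 0.1, 50% without overlapping genes and 37.5% at 1.5-fold. The 4 rescalings raise every ed/ed value, so by construction none could lower this share. The same share was not computed over all genes, but their calls moved the same way. Over all genes, higher calls were fewer than lower ones as deposited (2.12% and 5.28%). They were more than lower ones by the median ratio (4.24% and 2.48%) and by reference genes (6.54% and 1.61%). A rise of the share with rescaling is therefore not particular to Rik genes. The median of -0.14 became 0.13 (median ratio), 0.067 (upper quartile), 0.30 (reference genes) and 0.055 (length trend removed). By construction a rescaling shifts all genes together, whereas removal of the length trend moves genes by different amounts and in both directions. The difference of that median from all genes of the level lay between 0.05 and 0.17 where a level was required. Of 280 alternative values of the 40 named Rik genes, 135 lay outside the counting interval. Of the 11 genes past 2-fold, 0 changed sign. Pseudocounts cannot change a sign, and the largest rescaling adds at most 0.453 to a log2 ratio. For genes chosen at 2-fold, those settings could therefore give no other outcome. No paired analysis was possible because each genotype has 1 library. Depth limits mainly 0610009L18Rik and 1190007I07Rik, with under 110 estimated fragments over both libraries.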
